A study of Mus musculus with 8 samples.

Results

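The Zic genes encode zinc finger transcription factors, and 4 of them, Zic1, Zic2, Zic4 and Zic5, are described here through the H3K9ac peaks at their loci in mouse cerebellum. They were chosen by name, with the peaks of these libraries already known, and lie in a pair of divergent gene pairs. The peaks counted are those that overlap a member gene or lie within 20 kb of it: 93 of the 52676 peaks in all 8 libraries, at 4 of 21887 protein-coding genes. Peak number and covered length at these loci were among the values known when the genes were chosen, so they are given as a description. Only the comparison of genotypes is tested.

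H3K9ac is acetylation of histone H3 at lysine 9, a mark of active promoters, read here by chromatin immunoprecipitation and sequencing (ChIP-seq). The libraries came from cerebella of C57BL/6 mice aged 9 weeks: 4 from heterozygous 266Q knock-in mice, and 4 from wild type mice. The knock-in allele is of Atxn7, with a lengthened polyglutamine stretch, and models spinocerebellar ataxia type 7 (SCA7). Its controls carry no such allele, and the series describes them as littermates and the knock-in mice as symptomatic.

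Zic proteins bind DNA through C2H2 zinc fingers related to those of the GLI factors of Hedgehog signalling. In the cerebellum, Zic1 and Zic2 are known from granule cells and their progenitors. In mice, loss of Zic1 leaves a small cerebellum with abnormal folding, and Zic1 and Zic4 lie in the interval that is deleted in some human Dandy-Walker malformations. ZIC2 is known in humans for its part in holoprosencephaly. Zic4 and Zic5 are the divergent neighbours of Zic1 and Zic2.

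The stretches from 250 bases before to 50 bases after an annotated start are shown because broad peaks reached or crossed each of them. They are RefSeq promoters of build GRCm38.p6, the assembly that mm10 names, written 5′ to 3′ along the gene, with each CpG dinucleotide in capitals. The Zic1 promoter is chr9:91365719-91366018 on the minus strand, that of Zic4 chr9:91368722-91369021 on the plus strand, and that of Zic5 chr14:122465609-122465908 on the minus strand. Zic2 is named without a sequence.
Zic1: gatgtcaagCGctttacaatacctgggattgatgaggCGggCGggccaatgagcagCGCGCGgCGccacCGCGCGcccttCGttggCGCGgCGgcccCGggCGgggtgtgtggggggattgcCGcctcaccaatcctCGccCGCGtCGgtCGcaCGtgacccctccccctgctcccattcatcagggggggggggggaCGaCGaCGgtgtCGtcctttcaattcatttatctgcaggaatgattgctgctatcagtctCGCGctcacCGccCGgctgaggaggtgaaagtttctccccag
Zic4: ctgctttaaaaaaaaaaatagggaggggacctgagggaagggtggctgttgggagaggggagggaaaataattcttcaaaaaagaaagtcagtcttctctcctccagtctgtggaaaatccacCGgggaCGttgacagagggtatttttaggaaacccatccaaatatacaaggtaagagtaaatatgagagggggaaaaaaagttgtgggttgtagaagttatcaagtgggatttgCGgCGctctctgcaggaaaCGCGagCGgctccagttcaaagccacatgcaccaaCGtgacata
Zic5: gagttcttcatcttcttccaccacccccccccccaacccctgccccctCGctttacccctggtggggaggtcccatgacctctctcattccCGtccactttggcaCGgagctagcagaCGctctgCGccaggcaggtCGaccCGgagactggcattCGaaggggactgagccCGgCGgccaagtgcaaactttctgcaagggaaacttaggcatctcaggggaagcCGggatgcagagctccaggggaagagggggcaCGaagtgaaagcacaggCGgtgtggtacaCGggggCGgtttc

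The 3 promoters differed in base composition. Zic1 had 31 CpG dinucleotides, more than 86.6% of 17492 promoters of protein-coding genes in the table, and 65.3% G or C. Zic5 had 15 CpG and 62.7% G or C, close to the table's median of 13 CpG. Zic4 had 8 CpG and 46% G or C, and 20.1% of promoters had a lower G or C share. On both strands, GGGCGG (or CCGCCC), the core of a GC box, matched 3 times in the Zic1 promoter, once in that of Zic5 and not in that of Zic4, against a match in 46.3% of all promoters. CCAAT (or ATTGG) matched 2 times in Zic1 and in neither of the other promoters, against 39.0% of all promoters. The palindrome CACGTG matched once, in Zic1, against 7.90% of all promoters, and TATAAA (or TTTATA) was in none of the 3, against 13.3%. No matches overlapped one another, and a match is a description of the sequence.

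The libraries differed in kind before any comparison of genotypes. Replicates 1 and 2 of both genotypes held 7735 to 11409 peaks with a median width of 1065 to 1246 bp. Replicates 3 and 4 held 1266 to 5571 peaks with a median width of 132 to 148 bp. Lists of broad peaks are called long below, and lists of narrow peaks short. A pair of values for the long lists of a genotype gives replicate 1, then 2. Read depth is unknown, since a peak list holds no counts. No label states whether each replicate was a different animal. The p-values therefore measure the spread among the libraries, and that spread may be technical. Of 14 granule cell markers, 12 had a peak within 1 kb of an annotated start in each long list, and 11 had one in all 4. Where no strand is given for a gene, its ends took the place of a start in this and all like counts below. Over all protein-coding genes the share with such a peak was 40.2 and 37.2% in the knock-in long lists, against 32.7 and 28.9% in the wild type long lists.

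At the Zic1 and Zic4 locus the long lists held a row of broad peaks over both genes, and the short lists almost nothing. Zic1 (chr9:91358058-91365768, minus strand) and Zic4 (chr9:91365631-91389351, plus strand) overlap at their 5′ ends in the gene table. The start annotated in the Zic4 promoter table lies 3204 bp from that of Zic1. The window of 71294 bp, 20 kb beyond both genes, held 9, 10, 3 and 0 peaks in replicates 1 to 4 of the knock-in, and 7, 9, 0 and 0 in those of the wild type. Covered length, the bases under a peak, was 19699, 19092, 543 and 0 bp in replicates 1 to 4 of the knock-in, and 17504, 12624, 0 and 0 bp in those of the wild type. Replicates 1 and 2 were high in both genotypes and replicates 3 and 4 near 0, and over all replicates the genotypes overlapped. Within the long lists, with 2 libraries a genotype, both knock-in values lay above both wild type values.

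**Figure D1:**
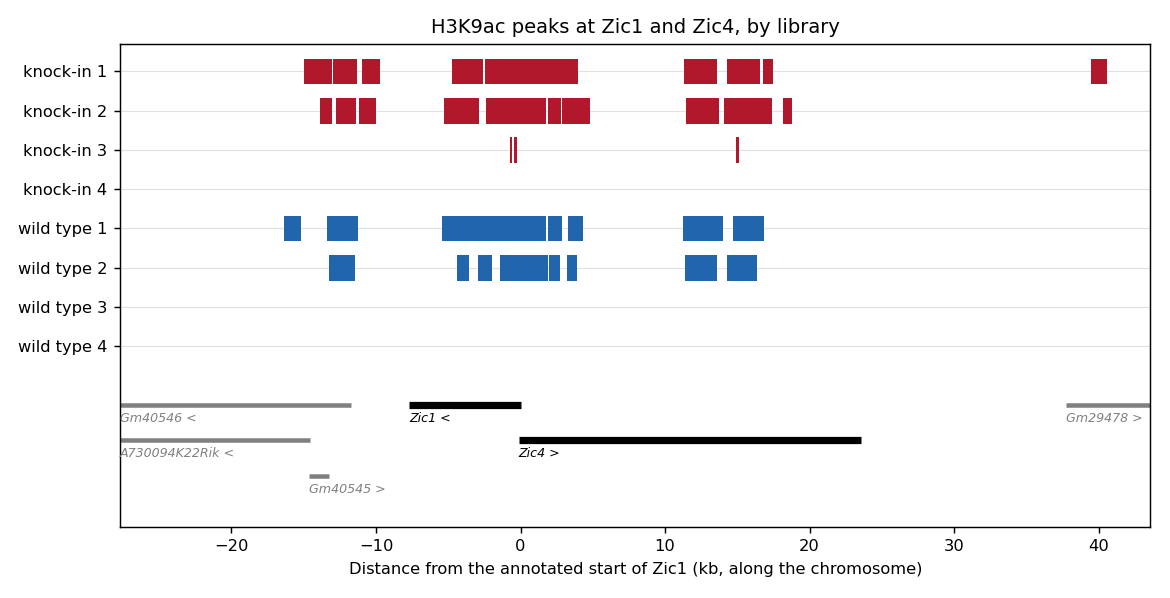
Peaks at Zic1 and Zic4 in each library, drawn as bars against the distance from the annotated start of Zic1 in kb along the chromosome; black lines are the member genes and grey lines other genes, with arrowheads for strand where the tables give it. The 4 long lists share blocks over the Zic1 start, inside Zic4 and left of Zic1; knock-in replicate 3 has 3 narrow peaks and the other short lists have none.

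Over the Zic1 gene itself, peaks covered 4580, 4737, 351 and 0 bp of 7711 bp in replicates 1 to 4 of the knock-in, and 5403, 3168, 0 and 0 bp in those of the wild type. In the long lists this was 41.1 to 70.1% of the gene. The peak over the Zic1 start was 6429 and 4129 bp wide in the knock-in long lists, and 7184 and 3310 bp wide in the wild type long lists. Its score, the authors' own value for a peak, ranked 1211th of 10607 and 65th of 11268 in the knock-in long lists. It ranked 23rd of 11409 and 143rd of 7735 in the wild type long lists. Knock-in replicate 1 thus had one of the widest peaks of its list here, 8th by width, without one of the highest scores.

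Zic4 was covered in separate blocks, at its 5′ end and inside the gene. Peaks covered 9305, 11098, 192 and 0 bp of the 23721 bp gene in replicates 1 to 4 of the knock-in, and 8871, 7753, 0 and 0 bp in those of the wild type. At the start annotated for Zic4 the long lists differed. A peak crossed it in the knock-in long lists and in neither wild type long list. The Zic4 promoter printed above was covered over 300 and 300 bases in the knock-in long lists, against 0 and 5 bases in the wild type long lists. In wild type replicates 1 and 2 peaks lay on both sides, with 669 and 536 bp covered in the 1 kb before the start and 928 and 650 bp in the 1 kb after it. The gap in wild type was thus a break between neighbouring peaks, of which one lay on each side. It was noticed after the values were seen, and no test was made of it. Of 17492 annotated starts, 3.6% lay under a peak in both knock-in long lists and in neither wild type one, and 0.126% the other way round.

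Many bases were covered in all 4 long lists. At Zic1 and Zic4 these were 11155 bp, 45.5% of the 24525 bp covered in any long list. The longest stretch was chr9:91364344-91367535, 3192 bp across the Zic1 start and the 5′ end of the Zic4 gene. The next were chr9:91377185-91379331, 2147 bp inside Zic4, and chr9:91352980-91354336, 1357 bp overlapping the noncoding gene Gm40546. Inside Zic4, a further 1310 bp were shared at chr9:91380842-91382151.

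The Zic2 and Zic5 locus was covered over a larger part of its window, and 3 of the 4 short lists had peaks in it. Zic5 (chr14:122459160-122465658, minus strand) and Zic2 (chr14:122475384-122480328) start 9726 bp apart, with the noncoding gene 2610035F20Rik between them. The Zic2 start is here the gene end that faces Zic5, since no annotated start was at hand. The window of 61169 bp held 10, 7, 7 and 0 peaks in replicates 1 to 4 of the knock-in, and 9, 8, 9 and 5 in those of the wild type. Covered length was 25082, 20517, 2421 and 0 bp in replicates 1 to 4 of the knock-in, and 23031, 19479, 1358 and 679 bp in those of the wild type. Knock-in replicate 4, the shortest list, was the single library with no peak at any member gene. The genotypes overlapped within the long and within the short lists.

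**Figure D2:**
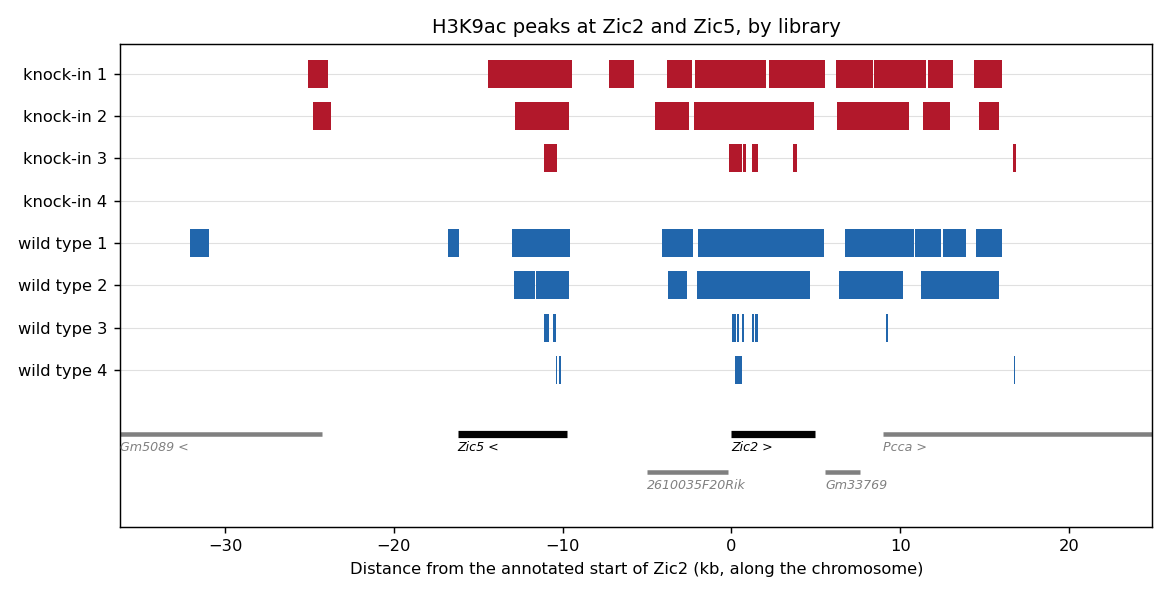
Peaks at Zic2 and Zic5 in each library, drawn as bars against the distance from the start of Zic2 in kb along the chromosome. That start is the gene end that faces Zic5. Black lines are the member genes and grey lines other genes. All 4 long lists cover Zic2 nearly end to end and the 5′ part of Zic5, and 3 of the 4 short lists have narrow peaks just inside both genes.

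Zic2 was covered almost from end to end in every long list. Peaks covered 4778, 4873, 1291 and 0 bp of its 4945 bp in replicates 1 to 4 of the knock-in, and 4945, 4660, 759 and 377 bp in those of the wild type. The long lists thus covered 94.2 to 100% of the gene. The highest score of the locus lay in a Zic2 peak in all 7 libraries with a peak. It ranked 31st of 10607, 14th of 11268 and 33rd of 5571 peaks in knock-in replicates 1 to 3, and 13th of 11409, 22nd of 7735, 200th of 3249 and 156th of 1571 in replicates 1 to 4 of the wild type. Both genotypes therefore had Zic2 among the top-scoring peaks of their long lists.

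Zic5 was covered mainly in its 5′ part. Peaks covered 4693, 3103, 758 and 0 bp of its 6499 bp in replicates 1 to 4 of the knock-in, and 3358, 3113, 441 and 213 bp in those of the wild type. The peak at its start ranked 68th and 32nd by score in the knock-in long lists, and 61st and 105th in the wild type long lists. Those ranks put it near the top of each long list, as for Zic2.

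Part of the cover in this window lay over other genes. Pcca, which encodes the alpha subunit of the mitochondrial propionyl-CoA carboxylase, starts inside the window, and its gene held 22.8 and 21.1% of the covered bases in the knock-in long lists, against 27.3 and 29.9% in the wild type long lists. The Zic2 gene held 19.0 and 23.8% in the knock-in long lists, against 21.5 and 23.9% in wild type. Bases in all 4 long lists numbered 16726, 56.7% of the 29474 bp in any long list. The longest shared stretch was chr14:122473417-122477451, 4035 bp over the Zic2 start and the end of 2610035F20Rik, followed by chr14:122477619-122480061, 2443 bp within Zic2. Another 1970 bp, chr14:122463786-122465755, lay over the 5′ part of Zic5.

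Around the starts, the peaks of the 4 genes were placed differently. The peak over the Zic5 start lay almost wholly inside the gene. It reached 279 and 120 bp before the start in the knock-in long lists, against 179 and 97 bp in the wild type long lists. On the other side it ran 4693 and 3103 bp into the gene in knock-in, against 3301 and 1873 bp in wild type. The downstream part was 94.4 and 96.3% of the peak in knock-in, against 94.9 and 95.1% in wild type. Over all genes with a peak on the start, of which there were 4115 to 6284 per long list, the median downstream part was 67.4 to 70.3%. Zic5 stood at percentiles 94.4 to 97.4 of these genes.

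The peak over the Zic2 start was more even, with a downstream part of 49.2 and 68.5% in the knock-in long lists, against 73.5 and 50.5% in wild type. The lower value of each pair came from a library that split the cover of Zic2 into a pair of peaks. For Zic1 the downstream part was 38.5 and 57.2% in the knock-in long lists, against 75.2 and 43.1% in wild type. Upstream of Zic1 the peak ran on toward Zic4, by 3954 and 1767 bp in knock-in, against 1781 and 1885 bp in wild type. At the Zic4 start the downstream part was 11.7 and 82.0% in the knock-in long lists, and no peak crossed that start in the wild type long lists. In knock-in replicate 1 the peak over the Zic4 start was the same peak as that over the Zic1 start. The Zic1 promoter printed above was covered over all 300 bases in each long list, and that of Zic5 over 300 and 170 bases in knock-in, against 229 and 147 bases in wild type.

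**Figure D3:**
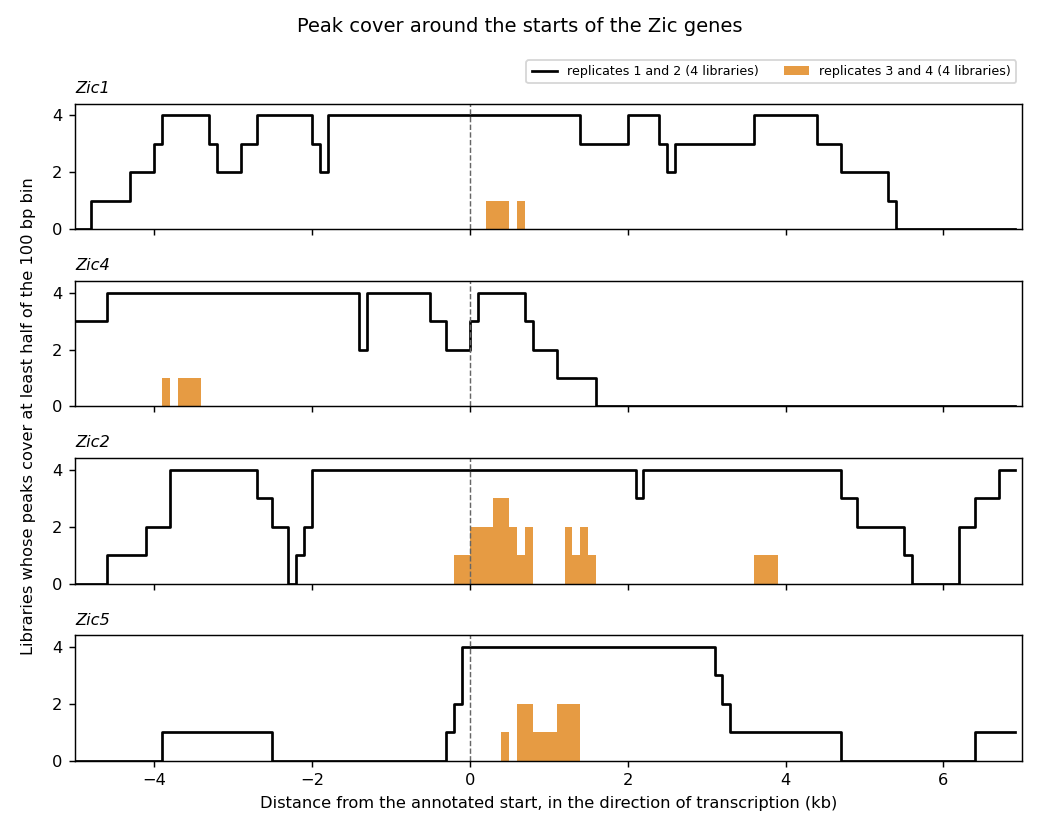
Number of libraries whose peaks cover each 100 bp bin around the start of each Zic gene. The start is the annotated one, or for Zic2 the gene end that faces Zic5. Distance is in kb in the direction of transcription. The line counts the 4 long lists (replicates 1 and 2) and the filled area the 4 short lists (replicates 3 and 4). The cover of Zic5 begins close to its start, that of Zic1 and Zic2 runs through it, and the narrow peaks of the short lists sit mostly after the starts of Zic1, Zic2 and Zic5. A bin counts where a peak covers at least 50% of it.

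At these loci, most narrow peaks of the short lists fell where the long lists had broad ones. Of 24 narrow peaks at both loci, 22 overlapped a peak in all 4 long lists. The other 2 overlapped a peak in none, and these were 1 peak of knock-in replicate 3 and 1 of wild type replicate 4 at one place in Pcca, chr14:122492043-122492259. Of the 24, 19 had their midpoint 0 to 2 kb after the start of a member gene. In Zic5 they lay 596 to 1353 bp after the start in knock-in replicate 3, against 696 to 1352 bp in wild type replicate 3 and 393 to 696 bp in wild type replicate 4. In Zic2, knock-in replicate 3 had a peak across the start, from 155 bp before to 203 bp after it, while the first peaks of wild type replicates 3 and 4 began 14 and 225 bp after it. In Zic1, knock-in replicate 3 had 2 peaks, 231 to 470 and 608 to 718 bp after the start. The shares over all narrow peaks are not given here. As these windows are among the most covered of the long lists, nothing particular to the Zic genes is read from the counts of 22 and 19.

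Against all protein-coding genes, the Zic windows were among the most covered of each long list. A peak within 20 kb of the gene was found for 4 of 4 members in each long list, against 55.4 and 54% of all genes in the knock-in long lists, and 51.2 and 43.7% in the wild type long lists. In the short lists it was found for 4 and 0 members in knock-in replicates 3 and 4, against 23.1 and 4.32% of all genes. In wild type replicates 3 and 4 it was found for 2 and 2 members, against 13.9 and 5.84% of all genes. Members of a pair share most of their window, so these are counts over 2 loci. Since peaks had a part in the choice of genes, nothing is read from the shares.

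The covered share of the gene with its flanks of 20 kb gives the order of the members. It was 53.1 and 43.2% for Zic2 in the knock-in long lists, against 48.7 and 43.3% in the wild type long lists. For Zic5 it was 44.4 and 37.6% in knock-in, against 38.8 and 31.9% in wild type. For Zic1 it was 39.0 and 40.0% in knock-in, against 36.7 and 26.5% in wild type. For Zic4 it was 30.9 and 30.0% in knock-in, against 27.5 and 19.8% in wild type. Zic2 was first and Zic4 last in each of the 4 long lists, while Zic5 and Zic1 changed places in knock-in replicate 2.

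All 4 members were among the 10 most covered of 21887 genes in each long list, at ranks 6 to 10. The median share over all genes was 0.832 and 0.693% in the knock-in long lists, against 0.335 and 0% in wild type. The other genes of the first 10 were the same 6 in every long list, predicted genes on chromosome 6 that lie within 85426 bp of one another. In the short lists Zic2 ranked first in knock-in replicate 3 with 5.39%, against rank 7 with 3.02% in wild type replicate 3 and rank 1 with 1.51% in wild type replicate 4. Zic5 followed at rank 2 in knock-in replicate 3, against ranks 8 and 2 in wild type replicates 3 and 4.

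**Figure D4:**
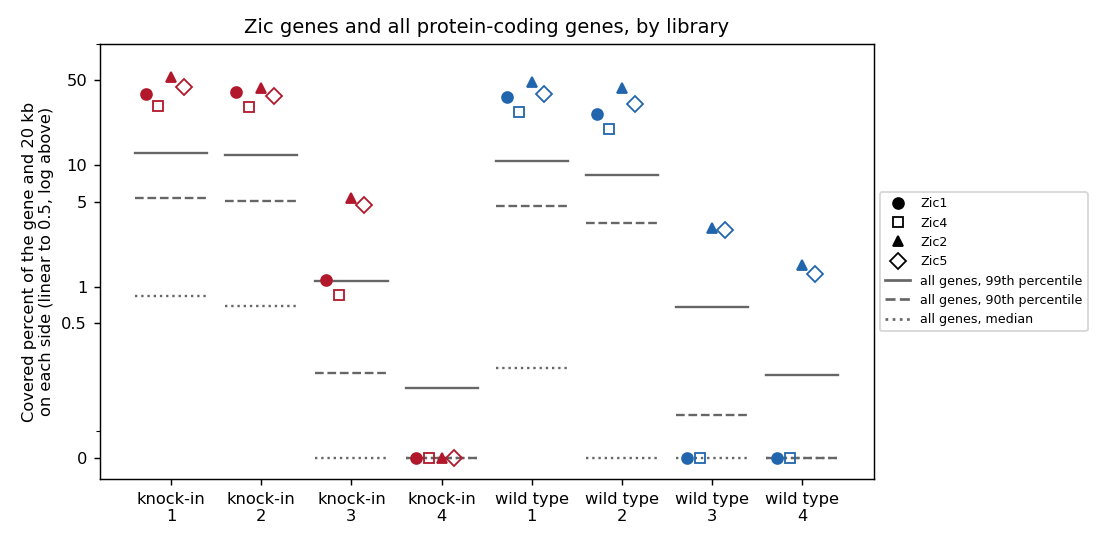
Covered percent of each Zic gene with 20 kb on each side, by library (linear to 0.5, logarithmic above), with the median, 90th and 99th percentile of 21887 protein-coding genes as lines. The 4 members lie above the 99th percentile in every long list, and Zic2 and Zic5 also in 3 of the 4 short lists.

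The cover of the genes themselves, without flanks, was high for their length. Among 4897 genes within a factor of 2 of the length of Zic2, a share as high as that of Zic2 was found in 8 and 9 genes, Zic2 included, in the knock-in long lists, and in 6 and 6 in wild type. Among 7882 genes of like length, the share of Zic4 was reached by 2 and 2 genes in knock-in, itself included, and by 4 and 2 in wild type. For Zic1 the counts were 24 and 18 of 6170 genes in knock-in, against 9 and 22 in wild type. For Zic5 they were 15 and 47 of 5714 genes in knock-in, against 29 and 21 in wild type.

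No difference between genotypes was detected at either locus beyond the spread between libraries. Covered length at Zic1 and Zic4 averaged 9834 ± 11046 bp in knock-in and 7532 ± 8922 bp in wild type (SD, n = 4 each), and the exact permutation test, two-sided, gave p = 0.571. At Zic2 and Zic5 it averaged 12005 ± 12642 bp in knock-in and 11137 ± 11777 bp in wild type (SD, n = 4 each), with an exact permutation p of 0.771. The number of peaks at Zic1 and Zic4 averaged 5.50 ± 4.80 in knock-in and 4.00 ± 4.69 in wild type (SD, n = 4 each), with an exact permutation p of 0.657. At Zic2 and Zic5 it averaged 6.00 ± 4.24 in knock-in and 7.75 ± 1.89 in wild type (SD, n = 4 each), with an exact permutation p of 0.657. Adjusted over these 4 tests by Benjamini-Hochberg, each exact p was 0.771. With 4 libraries against 4 the smallest possible p is 0.0286. Between libraries of the same replicate number, covered length in knock-in minus wild type was 2195, 6468, 543 and 0 bp at Zic1 and Zic4 for replicates 1 to 4, and 2051, 1038, 1063 and -679 bp at Zic2 and Zic5. With the replicate number as a block the exact permutation p was 0.25 at each locus. The smallest possible was 0.125 at Zic2 and Zic5, but 0.25 at Zic1 and Zic4, where replicate 4 had a difference of 0 bp. Without knock-in replicate 1 or 2, or without wild type replicate 3 or 4, wild type is left with the larger share of long lists, and the sign of the unpaired difference turned at both loci. The difference at Zic1 and Zic4 was then -987, -785, -209 and -209 bp, and at Zic2 and Zic5 -3491, -1969, -2391 and -2618 bp. The sign for the number of peaks at Zic2 and Zic5 turned without knock-in replicate 4, to 0.25. The cause of these turns was not tested.

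**Figure D5:**
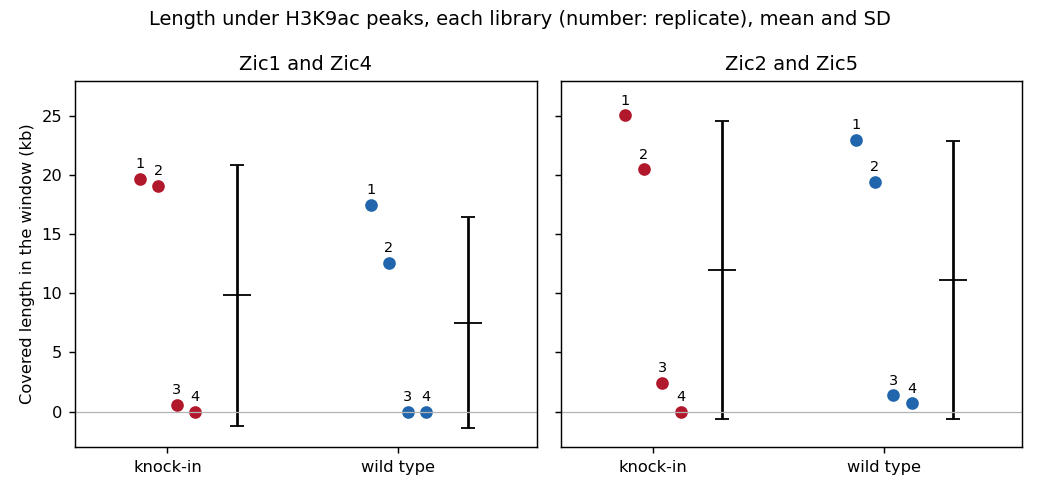
Covered length in kb within the window of each locus, 1 point a library with its replicate number, beside the mean and SD of each genotype (n = 4). Replicates 1 and 2 are high and replicates 3 and 4 near 0 in both genotypes, and over all replicates the genotypes overlap at both loci.

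Within the long lists, covered length at Zic1 and Zic4 averaged 19396 bp for knock-in and 15064 bp for wild type. At Zic2 and Zic5 it averaged 22800 bp for knock-in and 21255 bp for wild type. The exact permutation p values were 0.333 and 0.667, where 0.333 is the lowest that 2 libraries a group allow. Within the short lists the means were 271.5 bp in knock-in and 0 bp in wild type at Zic1 and Zic4, and 1211 bp in knock-in and 1019 bp in wild type at Zic2 and Zic5. By gene, the ratio of knock-in to wild type in the long lists was 1.25 for Zic1, 1.29 for Zic4, 1.05 for Zic2 and 1.16 for Zic5. Over 11226 genes with cover in both genotypes the median ratio was 1.27, with quartiles of 1.03 and 1.64. The members' ratios lay within those quartiles.

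Library size moved with these means. Wild type replicate 2 had the fewest peaks and the least total cover of the long lists, 9.09 Mb against 14.3 to 14.5 Mb in the other 3, and its part in the means was not tested. Per Mb covered in the library, Zic1 and Zic4 held 1358 and 1323 bp in the knock-in long lists, against 1228 and 1389 bp in wild type. Zic2 and Zic5 held 1729 and 1422 bp per Mb in knock-in, against 1616 and 2143 bp in wild type. On that scale the genotypes overlapped at both loci in the long lists.

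Over all genes, covered length within 20 kb was called as different between genotypes for 0% of genes (0 of 14420, exact permutation test with Benjamini-Hochberg adjustment). There were 5 genes with an unadjusted exact p under 0.05. At the smallest p that the design allows, 57.1% of the genes would have to reach it for any to be called, so single genes could not be called. Of the 4 members 0 were called, each with an adjusted exact permutation p of 1. Genes whose groups did not overlap made up 0.0347% of those tested, and 0 of 4 members were among them. They were Ercc5, BC034090, Sft2d2, Xirp1 and Mylk, each higher in knock-in and named after their values were seen.

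A few stretches were covered in both long lists of one genotype and in none of the other. At Zic1 and Zic4 they summed to 2374 bp covered in both knock-in and no wild type long list, and 218 bp in the reverse. At Zic2 and Zic5 they summed to 1127 and 767 bp. As a share of the bases in any long list, those in both knock-in lists alone made up 9.68% at Zic1 and Zic4 and 3.82% at Zic2 and Zic5, beside 6.67% over all chromosomes. Those in both wild type lists alone made up 0.889 and 2.60% at these loci, beside 1.25% over all chromosomes. A peak left of Zic1, chr9:91354582-91356048, was in both knock-in long lists and no wild type library, at score percentiles 38.2 and 32.1 of those lists. A peak in the noncoding gene Gm5089, chr14:122450270-122451656, was in the same 2 libraries and no wild type library, at score percentiles 44.6 and 41.6. These places were singled out after their values were seen, and the differences were not tested. The Jaccard index of covered bases between long lists at Zic1 and Zic4 was 0.721 within knock-in, 0.665 within wild type and 0.582 to 0.672 between genotypes. At Zic2 and Zic5 it was 0.726 within knock-in, 0.761 within wild type and 0.674 to 0.782 between genotypes.

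Of 6 GLI and GLIS genes, whose products have zinc fingers related to those of the Zic factors, 2 and 1 had a peak within 1 kb of an annotated start in the knock-in long lists, against 1 and 1 in the wild type long lists. Glis2 had such a peak in 6 libraries, 3 of each genotype, Glis1 in 1 knock-in library, and Gli1, Gli2, Gli3 and Glis3 in none. Gli1 and Gli2 carry the transcriptional response to Hedgehog signals and Gli3 acts largely as a repressor in their absence.

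Of 20 transcription factors of the granule cell lineage, 13 and 14 had a peak at the start in the knock-in long lists, against 13 and 11 in wild type. Mef2d, an activity-regulated factor, had a peak at the start in 7 libraries, 3 of the knock-in and 4 of the wild type. For Barhl2 it was 2 of the knock-in and 3 of the wild type, and for Etv1 and Mef2a 3 of the knock-in and 2 of the wild type. Atoh1, the factor that specifies granule cell progenitors, had none. The median covered share within 20 kb over this list was 3.96 and 4.69% in knock-in, against 3.81 and 2.05% in wild type, below every member of the Zic family described here.

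The marker lists of other cell types were counted in the same way and no difference between lists was tested. Purkinje markers had a peak at the start for 6 and 7 of 15 genes in the knock-in long lists, against 4 and 6 in wild type, which is near the share of all genes given above. For inhibitory interneurons it was 1 of 10 markers in each long list. Markers of unipolar brush cells and nuclei had 3 and 3 of 7 in knock-in, against 2 and 2 in wild type, again near that share. Of 9 markers of astrocytes and Bergmann glia, 2 and 2 had one in knock-in, against 1 and 1 in wild type. Oligodendrocyte markers had 1 and 2 of 10 in knock-in, against 1 and 0 in wild type. Microglial markers had 1 and 0 of 8 in knock-in, against 0 and 0 in wild type, and the 8 vascular markers had none in any library. Cells of the meninges also express Zic genes: of 13 markers of meninges and choroid plexus 1 and 0 had a peak in knock-in, against 0 and 1 in wild type, and in both cases this was Foxd1. ChIP on whole tissue does not show which cells carry the mark, and fewer cells of a type and less mark per cell cannot be told apart.

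The genes whose pattern over the 8 libraries was most like that of each locus were found from the percentile of covered length within 20 kb among all protein-coding genes. The measure was the mean absolute difference of percentiles over the 8 libraries. For Zic1 and Zic4 they were Mxi1 at 0.177 percentile points, Maml3 at 0.394, Pde10a at 0.539, Nfib at 0.639 and Mllt6 at 0.688. Like the Zic1 and Zic4 locus, each had peaks in the long lists and in knock-in replicate 3 and none in the other 3 short lists. That shared pattern follows from how the genes were picked. In knock-in replicate 1 their covered share of the window was 1.29% (Pde10a) to 12.9% (Mllt6), against 39.0% for Zic1 and 30.9% for Zic4. For Zic2 and Zic5 the genes most alike were Grm4 at 0.0453 percentile points, Sae1 at 0.278, Midn at 0.331, Cbarp at 0.582 and Ptch1 at 0.693. Grm4 encodes a metabotropic glutamate receptor of granule cells and Ptch1 the receptor of Hedgehog ligands. Midn and Cbarp are neighbours and share peaks. Covered length in bp grows with gene length: by share of the window, Grm4 was at 10.4 and 13.6% in the knock-in long lists, against 11.9 and 10.0% in wild type.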

How the data were processed

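H3K9ac ChIP-seq peaks were analysed in 8 cerebellar libraries, 4 knock-in and 4 wild type, grouped by sample title. Each deposited file was a peak list with a start, an end and a score per peak. The caller was MACS, run within Galaxy on every library alone, per the file headers. Bowtie2 and the build mm10 are named per the submitters' processing notes. For MACS, a version, settings or an input control were not given in the sources used here. Its score was the authors' own deposited value, at least 50 in every list and on a scale that is not stated, and served to rank the peaks of one list. A longer list can come from deeper sequencing or a stronger precipitation, so lists are not on one scale. Starts below 0 (15 of 52676 peaks) were set to 0, and coordinates are 1-based.

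Genes came from a RefSeq table of GRCm38.p6 (21887 protein-coding genes on nuclear chromosomes), and starts and strands from its promoter table. Zic2 is not in that promoter table, so its start was taken as the gene end that faces Zic5. A peak counted if it overlapped the gene with 20 kb on each side by 1 bp. The genotype test was an exact permutation test, two-sided, over 70 assignments of the libraries. Over all genes it was run on covered length for genes with a peak in at least 1 library, with Benjamini-Hochberg adjustment at 0.05. The test was run on simulated data as a check.

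The main genotype test was unpaired. Same-numbered libraries were taken as pairs only in the alternative with the replicate number as a block. Deviations of same-numbered libraries from the group means, over genes, correlated at 0.687, 0.603, 0.885 and 0.907 for replicates 1 to 4. With the replicate number as a block no gene was called, and none could be, since the smallest possible exact permutation p is 0.125. Knock-in replicate 2 correlated at 0.725 with wild type replicate 1, so the numbers mark long and short lists more than single pairs.

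The text names the 4 members, neighbouring genes, up to 4 genes of each transcription factor list with peaks in the most libraries (ties by the alphabet), and 5 genes most like each locus beyond 100 kb of it. Other names were chosen after their values were seen. The members and gene lists were chosen with earlier results of these data known. Python 3.11.15, numpy 2.4.6, scipy 1.17.1 and matplotlib 3.10.9 were used. One gene that this rule names is not reported here.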

Additional observations from a re-analysis of the deposited data

How the results depend on the processing

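No comparison of genotypes at a Zic locus passed the threshold under any alternative, and exact permutation p-values over the 72 alternative values ranged from 0.25 to 1. The alternatives with the replicate number as a block, or with replicates 1 and 2 or 3 and 4 alone, could not pass it. The smallest exact permutation p possible there was at least 0.125. A window of 50 kb, or counting only peaks with at least 50% of their length in the window, gave the main values again. Of the 72 values, 60 kept the sign of the difference or were 0, and 12 turned it. Leaving out 1 library at a time gave differences in covered length, knock-in minus wild type, of -987 to 5625.5 bp at Zic1 and Zic4, and -3491 to 4870 bp at Zic2 and Zic5. The number of peaks at Zic2 and Zic5 then differed by -3.08 to 0.25. With peaks less than 500 bp apart joined, the difference in number of peaks was 0 at Zic1 and Zic4, against 1.5 without joining. At Zic2 and Zic5 it was -0.25 with joining, against -1.75 without. The number of peaks thus depended on how cover was split into peaks. With lists of equal length (the 1266 highest-scoring peaks of each library) the difference in covered length was 16 bp at Zic1 and Zic4, against 2301.5 bp with all peaks, and -1339 bp at Zic2 and Zic5. With a score of 100 or more it was 3586.5 bp at Zic1 and Zic4 and 636 bp at Zic2 and Zic5. As a share of the cover of the library it was -716 bp per Mb at Zic2 and Zic5, and -249.7 bp per Mb without knock-in replicate 4, which has no peak there. At Zic1 and Zic4 the share differed by 152.9 bp per Mb, and by 422 bp per Mb without knock-in replicate 4. Leaving that replicate out of the shares was chosen after seeing the data. Leaving out a library also leaves unequal shares of long lists in the genotypes. The cause of the turns in sign was not tested. With the replicate number as a block the exact permutation p for covered length was 0.25 at Zic1 and Zic4 and 0.25 at Zic2 and Zic5. For the numbers of peaks it was 0.25 and 0.375. The smallest p possible was 0.125 at Zic2 and Zic5. At Zic1 and Zic4 it was 0.25, since replicate 4 had no peak there in either genotype. The count of genes called over all genes was 0 under every alternative run, with 0 to 51 genes at an unadjusted exact p under 0.05, the 51 without knock-in replicate 4. The smallest p that these designs allow makes a call nearly impossible. With the block, or with replicates 1 and 2 or 3 and 4 alone, it makes a call impossible. That count of 0 therefore says nothing about stability. Short lists limit what can be seen: a gene with no peak in replicate 3 or 4 is not shown to lack the mark.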
